A study of Mus musculus with 38 samples.

Results

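Lipid-associated macrophage genes are 9 genes that mark a macrophage state described in fatty tissue: Trem2, Cd9, Gpnmb, Spp1, Lgals3, Fabp5, Plin2, Cd36 and Apoe. They were chosen by name, as the array probes that carry these gene names, and 12 probes of the 40628 on the array, or 9 genes of 19657 named ones, met that rule. Plin2 is listed on the array under its older symbol Adfp and was recognised by its accession. The genes were followed on 38 arrays of RNA from stromal vascular cells of epididymal fat, the cells left once adipocytes are removed, which the labels describe as infiltrating macrophages. The mice were C57BL/6J, weaned at 3 to 4 weeks of age and divided into 5 diets of 30 animals. The low fat control diet (LFC, 10 arrays) took 10% of its calories from fat. The high fat control diet (HFC, 10 arrays) had added sucrose and took 60% of its calories from fat. The same high fat diet was given with 5, 20 or 75 µg of the botanical formulation KAL-1 (6 arrays for each of HF5, HF20 and HF75). Both control diets were sampled on day 6, day 10 and day 14 (written D6, D10 and D14) and then every 3 weeks from week 0 to week 18 (written W0 to W18), the doses from week 3 on, so that all diets but LFC share the high fat feed. The design text speaks of 3 biological replicates, but the labels hold 1 array per diet and time point, and whether animals were pooled is not given in the sources used here. Time points therefore served as the replicates of a diet. For 4 arrays, those of HF5 and HF20 in the last 2 samplings (W15, W18), diet label and title disagree on the dose, and the title and source name were followed.

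In obese fat, macrophages gather around dying adipocytes, take up the lipid they release and store it in droplets. Trem2 is a surface receptor that senses lipids and signals through the adaptor Tyrobp, and macrophages without it fail to enter this state. Of the other surface and lysosomal proteins, Gpnmb is a transmembrane glycoprotein of the endolysosome and Cd9 is a tetraspanin. Spp1 (osteopontin) and Lgals3 (galectin-3) are secreted proteins that act on cell adhesion and inflammation. Cd36 is a scavenger receptor that takes up fatty acids and oxidised lipoproteins, Fabp5 carries fatty acids inside the cell, Plin2 coats lipid droplets, and Apoe accepts exported cholesterol. Cd36, Fabp5 and Plin2 are also made by adipocytes or endothelial cells, so that their RNA is not particular to macrophages. The RNA of the other members was not traced to a cell type here either. In a mixture of cells such as this, fewer cells of a type and less RNA per cell cannot be told apart.

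The stretches of DNA before the start of 3 of these genes are shown because Cd36 and Plin2 rose and fell together over the arrays, as described below, and because Trem2, which did not follow them, holds the same short motif. They are the 250 bases before the annotated start, from RefSeq on GRCm38.p6, read along the gene's own strand. Capitals mark AGGTCA or its reverse complement TGACCT, the half-site bound by nuclear receptors such as Pparg. Cd36 lies on the minus strand (chr5:17835897-17836146), as does Plin2 (chr4:86670060-86670309), and Trem2 lies on the plus strand (chr17:48346151-48346400).
Cd36: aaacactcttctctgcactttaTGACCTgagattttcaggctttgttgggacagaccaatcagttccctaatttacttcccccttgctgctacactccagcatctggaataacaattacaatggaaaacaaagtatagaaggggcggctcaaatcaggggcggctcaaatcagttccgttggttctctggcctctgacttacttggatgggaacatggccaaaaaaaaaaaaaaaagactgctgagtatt
Plin2: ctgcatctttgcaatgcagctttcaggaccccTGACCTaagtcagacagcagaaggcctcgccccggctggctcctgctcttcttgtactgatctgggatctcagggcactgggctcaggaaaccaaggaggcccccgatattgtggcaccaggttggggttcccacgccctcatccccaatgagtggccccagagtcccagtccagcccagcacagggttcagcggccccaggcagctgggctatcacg
Trem2: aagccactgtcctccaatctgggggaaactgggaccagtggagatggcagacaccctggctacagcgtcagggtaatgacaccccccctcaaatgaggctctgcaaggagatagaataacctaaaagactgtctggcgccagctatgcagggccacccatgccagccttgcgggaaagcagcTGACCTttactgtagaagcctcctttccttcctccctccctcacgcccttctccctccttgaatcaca
The half-site begins 228 bases before the start of Cd36, 218 before that of Plin2 and 68 before that of Trem2. Of 8 members with a listed window (11 windows), these 3 held the half-site on either strand. Each of the 3 has a single listed window, so 3 of the 11 windows held it, and 14% of all 32851 windows of this length did. The ETS core GAGGAA, part of the site of the macrophage factor PU.1, was found in Apoe, Spp1 and Trem2 and in 23.3% of all windows. Apoe and Spp1 have more than a single listed window, and a match in any of them counted. That count by gene is therefore not the same measure as the share by window. The E-box CACGTG was found in none of the 8 and in 6.02% of all windows. The motifs were chosen with the windows already seen, they can overlap only at their ends, and a match is a run of letters, not a bound site. Fabp5 was not among the windows listed.

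Every value below is a level, meaning log2 of the processed signal minus log2 of the array's 75th percentile, so that 0 is the brightness of that percentile on the same array. Each gene is represented by its brightest probe, and levels are compared between arrays for the same probe, never between genes. Trem2 and Lgals3 each had a second probe, which followed the first over the arrays with a Spearman correlation of 0.85 and 0.70. The probes of Gpnmb differed. The probe used was well above background on all 38 arrays and the other on 2, and their correlation was 0.23, so only the former was read. Of the representing probes, 8 were well above background on all 38 arrays and Cd9 on 37. The Cd9 spot of HFC D10 was marked as an outlier by the image software and was dropped, so Cd9 rests on 37 arrays. The Apoe spot was saturated on 28 of the 38 arrays and that of Plin2 on 6, and at saturation a level is a lower bound.

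The arrays differed widely in brightness and in the cells they reflect. The 75th percentile of signal ran from 25.8 units (HF5 W12) to 1983 (HFC W0), and HFC was brighter than LFC at 9 of the 10 time points. The arrays came from 31 slides and 14 scan days. LFC and HFC shared the scan day at every time point but the slide at 5 only (D6, D10, W12, W15 and W18). On HFC W12 and HF75 W12 the image software marked 4850 and 6257 spots as outliers, far more than elsewhere. The label was checked against markers. All 14 genes of a general macrophage list were tested and 10 were well above background on every array, among them Adgre1, Csf1r and Cd68, so macrophage RNA was present throughout. RNA of other cells was present too, since 8 of 11 adipocyte genes, including Adipoq, 8 of 9 endothelial genes and 5 of 8 genes of stromal progenitors were well above background on every array. The mean level over the macrophage list lay between 1.14 and 2.62 on the LFC arrays, and between 0.82 and 3.09 (W12) on the HFC arrays. On the dose arrays it ran from 1.06 to 3.37 in HF5, from -0.05 (W12) to 3.13 in HF20 and from 0.30 (W3) to 2.55 in HF75. For the adipocyte list these bounds were 0.18 and 4.88 in LFC, and 0.89 and 4.79 in HFC.

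Some arrays stood apart in the cell type lists. On LFC D6 and LFC D10 the mean level of a brown fat list was 2.19 and 2.68, where the other LFC arrays reached at most -0.41. The mesothelial list was at -5.61 and -5.82 on these arrays, against -1.22 or more on the other LFC arrays. LFC D10 also held the lowest Trem2 and the highest Cd36 of its diet, and LFC D6 the highest Plin2 and Apoe. The highest brown fat score of all arrays was 4.49 on HF5 W12, where the other HF5 arrays reached at most -2.64. HF5 W12 was also the dimmest array, and its mesothelial list was at -3.40. At W6 the T cell list lay between -0.21 and 2.02 on the 5 arrays, against -3.36 to 0.98 at the other time points. On the 4 high fat arrays of W6 the epididymis list was at most -4.18 and the mesothelial list at most -2.87. Low epididymis values were not particular to W6, since at the other time points that list ran from -8.22 to 3.98. The mesothelial list ran from -5.82 to 2.83 at the other time points. There only LFC D6, LFC D10 and HF5 W12, named above, lay at or below -2.87, and the next lowest was -1.86 (HF75 W3). The part of these arrays in the results was not tested, and values without them are given beside the members' results that move.

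**Figure D1:**
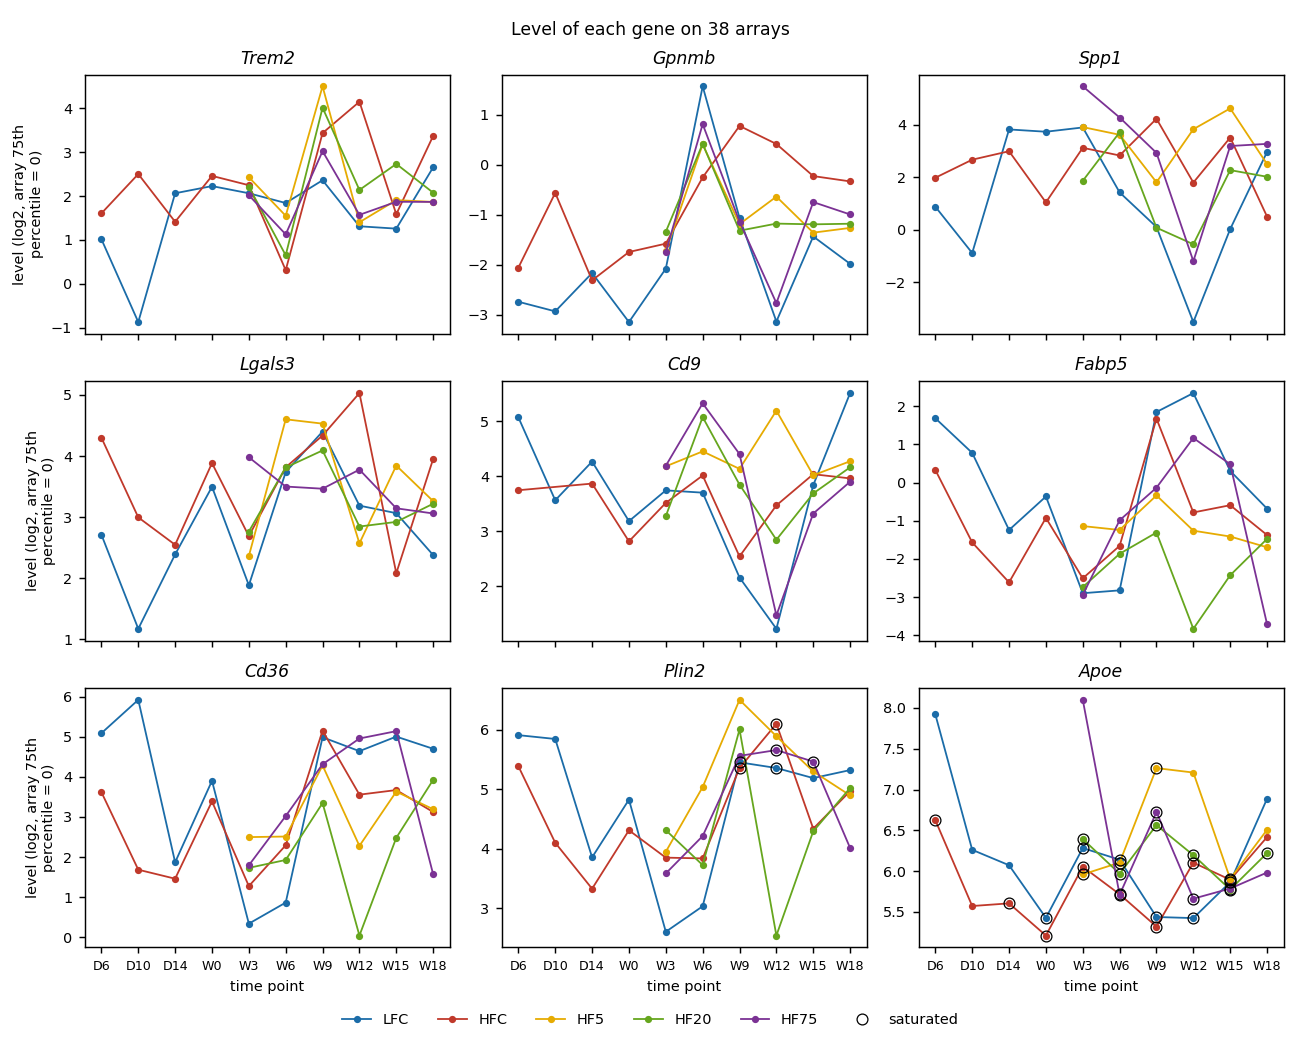
Level (log2, 0 at the array's 75th percentile) of the 9 genes at each time point, 1 point per array, with colours for the 5 diets and black rings on saturated spots. Spp1 spans from -3.51 (LFC W12) to 5.47 (HF75 W3), while Apoe stays between 5.21 and 8.10 with most of its points saturated.

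Between high fat and low fat diets, the 9 genes did not move as a group. The average level in HFC was above that in LFC for Trem2, Gpnmb, Spp1 and Lgals3 and below it for Fabp5, Cd36, Plin2, Apoe and Cd9. No member passed an adjusted p of 0.05 in limma with time point as a block, and neither did any probe (0% of 31026 tested). At an unadjusted p below 0.05 there were 3 members, Gpnmb, Lgals3 and Fabp5, beside 2819 probes or 9.09% of all those tested. Over the 9 members the median difference was -0.08, and over all probes tested it was 0.01.

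Gpnmb showed the smallest p. Its level in LFC was -2.74 at D6, -2.94 at D10, -2.17 at D14, -3.15 at W0, -2.08 at W3, 1.57 at W6, -1.07 at W9, -3.14 at W12, -1.44 at W15 and -1.99 at W18. In HFC it was -2.06 at D6, -0.57 at D10, -2.32 at D14, -1.75 at W0, -1.58 at W3, -0.26 at W6, 0.78 at W9, 0.41 at W12, -0.23 at W15 and -0.34 at W18. HFC was above LFC at 8 of 10 time points, the exceptions being D14 and W6, and the ranges of the diets overlapped. The LFC array of W6 was the highest Gpnmb level of all 38. The difference averaged 1.12 (SE 0.42, n = 10 time points), a 2.18-fold higher signal, with an unadjusted p of 0.0212 and an adjusted p of 0.545 by limma. Over the 10 fits that each left out a time point it stayed between 0.85 (without W12) and 1.45 (without W6), and without days 6 and 10 it was 1.02 (unadjusted p = 0.0654, limma). With normexp background correction it was 0.28, and with both probes averaged 0.67.

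Lgals3 was also above LFC at 8 of 10 time points. Its level in LFC was 2.71 at D6, 1.17 at D10, 2.39 at D14, 3.50 at W0, 1.89 at W3, 3.74 at W6, 4.40 at W9, 3.19 at W12, 3.07 at W15 and 2.38 at W18. In HFC it was 4.30 at D6, 3.00 at D10, 2.55 at D14, 3.89 at W0, 2.69 at W3, 3.82 at W6, 4.34 at W9, 5.03 at W12, 2.08 at W15 and 3.95 at W18. The lowest levels were LFC D10 and LFC W3 among the low fat arrays and W15 among the high fat ones, and the diets overlapped over most of their range. The difference averaged 0.72 (SE 0.29, n = 10 time points) with an unadjusted p of 0.0288 and an adjusted p of 0.545 by limma. Its second probe gave 0.92 (SE 0.38). The unadjusted p stayed below 0.05 in 6 of the 10 fits that each left out a time point and rose to at most 0.0661 in the others, which were those without D6, D10, W12 or W18. Without days 6 and 10 the difference was 0.47 (unadjusted p = 0.150, limma).

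Fabp5, the intracellular fatty acid carrier, ran the other way and was below LFC at 8 of 10 time points. Its level in LFC was 1.69 at D6, 0.78 at D10, -1.24 at D14, -0.36 at W0, -2.90 at W3, -2.82 at W6, 1.85 at W9, 2.34 at W12, 0.31 at W15 and -0.68 at W18. In HFC it was 0.33 at D6, -1.57 at D10, -2.61 at D14, -0.93 at W0, -2.51 at W3, -1.66 at W6, 1.68 at W9, -0.78 at W12, -0.59 at W15 and -1.37 at W18. The level changed more over time than between diets, with W3 and W6 among the lowest in both and W9 the highest of HFC. The difference averaged -0.90 (SE 0.37, n = 10 time points), with an unadjusted p of 0.0310 and an adjusted p of 0.545 by limma. That p was above 0.05 without D6, D10, D14 or W12, where it reached at most 0.0720. Without days 6 and 10 the difference was -0.66 (unadjusted p = 0.136, limma).

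The remaining 6 members did not reach an unadjusted p of 0.05. Trem2 ran from -0.87 (D10) over a median of 1.95 to 2.66 (W18) in LFC and from 0.31 (W6) over 2.35 to 4.15 (W12) in HFC. It was higher in HFC at 8 of 10 time points, by 0.72 on average (SE 0.42, unadjusted p = 0.117, adjusted p = 0.568, limma). That difference was 0.42 without D10, 0.48 without W12, 0.40 without days 6 and 10 and 0.97 without W6. Spp1 was the member that varied most, and 94.5% of probes had a smaller SD over the arrays. LFC levels lay between -3.51 and 3.90 with a median of 1.15, and HFC levels between 0.51 and 4.23 with a median of 2.75. At single time points HFC minus LFC ran from -2.69 (W0) to 5.31 (W12), so the mean difference of 1.22 had an SE of 0.80 (unadjusted p = 0.154, adjusted p = 0.585, limma). Without W12 it was 0.77.

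Cd36, the scavenger receptor, had medians of 4.67 in LFC and 3.26 in HFC. It ran from 0.34 (W3) to 5.92 (D10) in LFC and from 1.27 (W3) to 5.15 (W9) in HFC. It was lower in HFC at 7 of 10 time points, with a difference of -4.24 at D10 and -0.81 on average (SE 0.45, unadjusted p = 0.100, adjusted p = 0.558, limma). Without D10 that average was -0.43, and without days 6 and 10 it was -0.30. Plin2, the droplet coat protein, differed by -0.18 on average (SE 0.27, adjusted p = 0.793, limma), with LFC from 2.60 to 5.91 and HFC from 3.33 to 6.10, and by -0.0080 without D10 and -0.28 without W12. Cd9 differed by -0.08 (SE 0.34, adjusted p = 0.932, limma) over the 9 time points that had both spots, and its LFC levels ran from 1.23 to 5.51 around HFC levels of 2.54 to 4.04. Without W12 the Cd9 difference was -0.37. These ranges overlapped widely in all 3 genes.

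Apoe needs the most care. Its level was lower in HFC at 8 of 10 time points, with a mean log2 difference of -0.32 (SE 0.18, unadjusted p = 0.0968, adjusted p = 0.554, limma), but 6 of the 10 LFC and 8 of the 10 HFC spots were saturated. Over the fits that each left out a time point its difference lay between -0.43 and -0.21. Over the 38 arrays its level fell as array brightness rose, with a Spearman correlation of -0.93. With array brightness as a covariate the difference was 0.06, and with quantile normalisation 0.12, so its direction is not settled. Cd9, whose correlation with brightness was -0.54, also turned from -0.08 to 0.65 with brightness as a covariate (unadjusted p = 0.0285, adjusted p = 0.701, limma). For Gpnmb, Lgals3 and Fabp5 the same fit gave 1.44, 0.48 and -0.82.

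**Figure D2:**
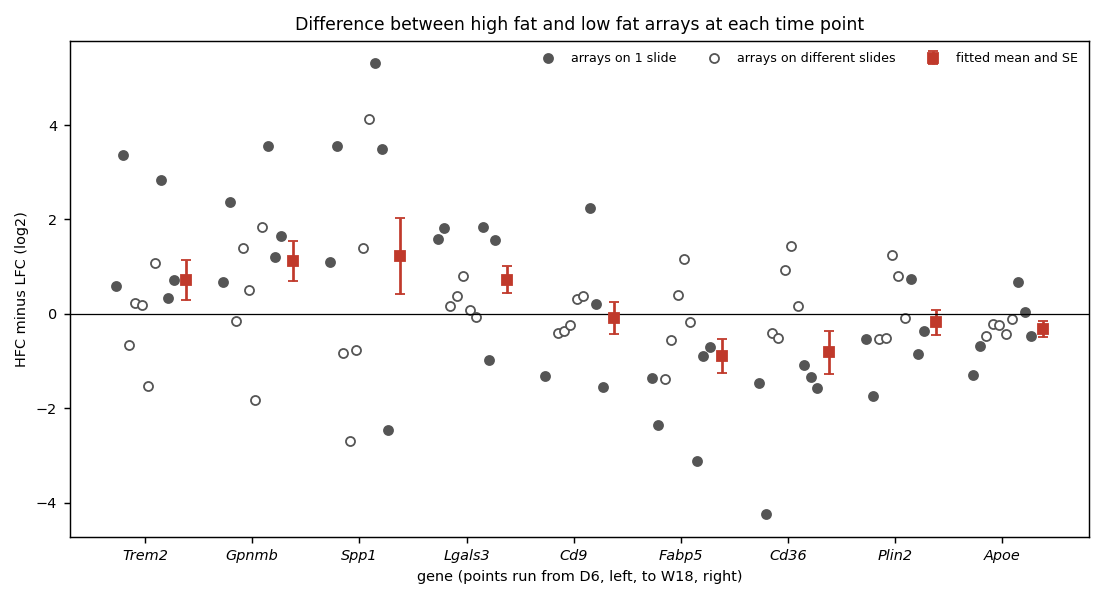
HFC minus LFC (log2) of each gene at the 10 time points, filled where the 2 arrays shared a slide and open where they did not, with the fitted mean and its SE as red squares. Trem2, Gpnmb, Spp1 and Lgals3 average above 0 and Fabp5 and Cd36 below it, and for Trem2 the filled points average 1.57 and the open ones -0.14.

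The size of these differences moved with the slide. At the 5 time points with both arrays on the same slide, Trem2 was 1.57 higher in HFC, Gpnmb 1.89, Spp1 2.20 and Lgals3 1.17, while Fabp5 was at -1.68 and Cd36 at -1.94. At the 5 time points with the arrays on different slides the same differences were -0.14, 0.35, 0.25, 0.27, -0.11 and 0.32. Trem2 and Cd36 thus had opposite signs in the 2 sets of time points. The part of the slide in this was not tested. The first set also holds W12, D10, W18 and D6, the time points at which LFC and HFC arrays differed most over all probes. On LFC D6 and LFC D10 the brown fat list was also high, as given above.

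That difference between time points can be read from the counts of genes at least 2-fold apart, which with 1 array on each side carry no test. At D6, 2 members were 2-fold higher in HFC and 4 lower, beside 21% of all probes 2-fold apart in either direction. At D10, 4 of the 8 measured members were higher (Trem2, Gpnmb, Spp1 and Lgals3) and 3 lower (Fabp5, Plin2 and Cd36), beside 38.7%. At D14 only Fabp5 was 2-fold apart (16.7% of all probes), and at W0 Gpnmb was higher and Spp1 lower (9.55%). D14 and W0 are separate arrays of the same elapsed day by the study's conversion. At W3 only Plin2 was 2-fold higher (13.9%). At W6, Spp1, Fabp5 and Cd36 were higher and Trem2 and Gpnmb lower (18.2%). At W9, Trem2, Gpnmb and Spp1 were higher and none lower (8.28%). W12 resembled D10: Trem2, Cd9, Gpnmb, Spp1 and Lgals3 were higher and Fabp5 and Cd36 lower, beside 43.7% of all probes. At W15, Gpnmb and Spp1 were higher and Cd36 lower (16.3%), and at W18 Gpnmb and Lgals3 were higher and Cd9, Spp1 and Cd36 lower (27.9%). At D10 and W12, where 7 members each were apart, the share of all probes was also the largest.

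Related genes were counted in the same comparison, where 9.09% of all probes tested had an unadjusted p below 0.05 (limma) and the median difference was 0.01. The same share stands beside the counts of the cell type lists that follow. Of 20 further genes known from lipid-associated macrophages, 5 were higher and 1 lower at an unadjusted p below 0.05, none passed after adjustment, and the median difference was 0.33 with 17 of 20 above 0. The smallest p belonged to Ctsk, a lysosomal protease (0.88, SE 0.26, adjusted p = 0.545, limma), Cd84, a surface receptor (0.88, SE 0.30), and Vat1 (0.43, SE 0.17). Of 8 genes of Trem2 signalling 6 averaged above 0, with a list median of 0.29. At an unadjusted p below 0.05 there was 1, Tyrobp, the adaptor of Trem2 (0.57, SE 0.24). The kinase Syk (0.91, SE 0.42) and the phospholipase Plcg2 (0.31, SE 0.19) came next. Of 20 genes of lipid uptake, export and their regulators 11 averaged above 0, with a median of 0.07. At an unadjusted p below 0.05, 1 was higher, the receptor Lrp1 (0.55, SE 0.22). The nuclear receptors Rxra (-0.54, SE 0.15) and Pparg (-1.14, SE 0.45) were lower at that threshold.

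Cell type lists moved beside the members. All 14 general macrophage genes were higher in HFC on average, 6 of them at an unadjusted p below 0.05, with a median of 0.68, led by Cd68 (1.06, SE 0.36), Itgam (1.08, SE 0.40) and Mpeg1 (0.63, SE 0.24). Of the 11 adipocyte genes only 1 averaged above 0, and 3 were lower at an unadjusted p below 0.05. Their median was -0.72, led by Pnpla2 (-0.88, SE 0.30), Acaca (-1.36, SE 0.55) and Lipe (-1.10, SE 0.50). All 9 endothelial genes averaged lower, 3 of them at an unadjusted p below 0.05. Their median was -0.59, led by Kdr (-0.91, SE 0.35), Cdh5 (-0.98, SE 0.40) and Gpihbp1 (-1.25, SE 0.53). The mean level of the endothelial list was highest in LFC (4.82) and lowest in HFC (0.88) at D10. The macrophage list thus moved the same way as Trem2, Gpnmb and Lgals3, and the adipocyte and endothelial lists the same way as Fabp5 and Cd36. With the macrophage list score as a covariate, the HFC minus LFC difference was 0.41 for Trem2, 0.80 for Gpnmb and 0.29 for Lgals3. With the adipocyte list score instead, it was -0.26 for Fabp5 and -0.40 for Cd36. No member was below an unadjusted p of 0.05 in either of these fits (limma), and over all probes the share was 2.62% with the macrophage score and 3.64% with the adipocyte score, in place of 9.09%.

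Other lists had wider swings. Of 5 brown fat genes 1 averaged above 0, and 3 were lower at an unadjusted p below 0.05. Their median was -1.77, led by Cox8b (-2.51, SE 0.75), Cidea (-2.11, SE 0.73) and Cox7a1 (-1.23, SE 0.52). The mean level of this list was 2.19 and 2.68 on LFC D6 and D10, against -2.10 and -3.06 on HFC D6 and D10. The other LFC arrays lay between -3.46 and -0.41, and all HFC arrays between -4.03 and -0.84. Of 8 stromal progenitor genes 5 averaged above 0, with a median of 0.30. At an unadjusted p below 0.05, 2 were higher, Dpt (1.04, SE 0.39) and Dpp4 (0.71, SE 0.28), and Lum (0.54, SE 0.26) came next. No gene reached an unadjusted p of 0.05 among 7 epididymis genes (median 2.40, led by Spag11b at 3.35, Cst8 at 2.40 and Adam7 at 2.67) or 6 mesothelial genes (median 1.80, led by Wt1 at 1.89, Upk3b at 2.24 and Krt19 at 1.46). The mean level of the epididymis list lay between -8.22 and 3.98 in LFC, and between -7.93 and 3.55 in HFC. That of the mesothelial list was -5.61 and -5.82 on LFC D6 and D10, against 2.53 and 1.43 on HFC D6 and D10. On the other LFC arrays it lay between -1.22 and 1.05, and its lowest HFC value was -5.91 (W6). List differences without D6 and D10 are not given here. Among 6 T cell genes none reached an unadjusted p of 0.05, with a median of 0.44, led by Cd3g (0.61), Lck (0.48) and Cd2 (0.50). The part of these cell types in the members' differences was not tested.

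The change with time was asked next. The difference between HFC and LFC did not change with elapsed time for any member at an unadjusted p below 0.05 (0 of 9, beside 4.37% of all probes, and 0% after adjustment). The smallest p were those of Apoe (slope 0.039 log2 per week, SE 0.025, adjusted p = 0.981, limma), Gpnmb (0.060, SE 0.064) and Spp1 (0.082, SE 0.12). Over the 10 fits that each left out a time point these slopes ran from 0.024 to 0.067 for Apoe, 0.026 to 0.091 for Gpnmb and 0.025 to 0.30 for Spp1, and Apoe and Spp1 each had 1 fit with an unadjusted p below 0.05, that without W18. Within HFC the slope of 1 member had an unadjusted p below 0.05, that of Gpnmb, whose level rose by 0.11 log2 per week (SE 0.036, n = 10 arrays, unadjusted p = 0.0132, adjusted p = 0.556, limma), beside 7.87% of all probes and 0% after adjustment. Its HFC levels lay at or below -0.57 at the 5 arrays up to W3 and at or above -0.34 at the 5 later ones. Over the 10 fits that each left out an array the slope lay between 0.092 and 0.14, with an unadjusted p below 0.05 in all 10. Cd36 (0.076, SE 0.050) and Plin2 (0.051, SE 0.037) came next and did not pass. Within LFC no member did, beside 3.89% of all probes and 0% after adjustment, and the smallest p were those of Trem2 (0.051, SE 0.044), Spp1 (-0.099, SE 0.10) and Lgals3 (0.038, SE 0.043).

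The formulation was compared with HFC over weeks 3 to 18, 6 time points, with all 5 diets in the same fit and HFC shared by the comparisons. No member or probe passed after adjustment for any dose (0%). At an unadjusted p below 0.05 there were no members in HF5, HF20 or HF75, beside 4.73%, 1.53% and 1.95% of 33709 probes. For the mean of the doses there was 1 member, Gpnmb, beside 1.74% of probes.

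Gpnmb was lower than HFC with each dose. Its level in HF5 was -1.73 at W3, 0.40 at W6, -1.19 at W9, -0.64 at W12, -1.36 at W15 and -1.27 at W18. In HF20 it was -1.34 at W3, 0.42 at W6, -1.32 at W9, -1.18 at W12, -1.19 at W15 and -1.18 at W18. In HF75 it was -1.75 at W3, 0.81 at W6, -1.14 at W9, -2.77 at W12, -0.75 at W15 and -0.997 at W18. In each dose the W6 array was the highest, and from W9 to W18 every dose array lay below the HFC array of its week. The mean differences from HFC were -0.76 in HF5, -0.77 in HF20 and -0.90 in HF75 (SE 0.44 each), with unadjusted p of 0.0940, 0.0927 and 0.0512 (limma), and none was below 0.05 after adjustment. The mean of the doses differed from HFC by -0.81 (SE 0.36, n = 6 time points, unadjusted p = 0.0330, adjusted p = 0.9999, limma) and lower at 5 of 6 time points. Without W9 it was -0.57 (HF20 alone -0.50), without W12 -0.58, and without weeks 9 and 12 it was -0.23, while without W6 it was -1.13. With normexp background correction it was -0.28. Over all their arrays the diet means of Gpnmb ran in the order HFC (-0.79, SD 1.07), HF5 (-0.96, SD 0.76), HF20 (-0.97, SD 0.68), HF75 (-1.10, SD 1.18) and LFC (-1.91, SD 1.41), with the doses on later time points only, and neighbours in this order differed by less than their SD.

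Fabp5 was lower in HF20 than in HFC at all 6 time points, with differences between -0.10 (W18) and -3.05 (W12). Its level in HF20 was -2.74 at W3, -1.87 at W6, -1.31 at W9, -3.83 at W12, -2.43 at W15 and -1.48 at W18. The mean difference was -1.40 (SE 0.71, unadjusted p = 0.0591, adjusted p = 0.9999, limma). HF5 and HF75 differed from HFC by -0.31 and -0.15. Cd36 followed in HF20 with -0.94 (SE 0.65, or -0.42 without W12), after Gpnmb. In HF5 the next smallest p were those of Apoe (0.57, SE 0.35, or 0.30 without W9) and Cd9 (0.78, SE 0.49, or 0.60 to 0.95 over the fits that each left out a week). In HF75 they were those of Trem2 (-0.60, SE 0.43) and Apoe (0.41, SE 0.35). Without W12 the HF75 differences were -0.21 for Trem2 and -0.44 for Gpnmb, and without W3 that of Apoe was 0.083. For the mean of the doses the next smallest p were those of Apoe (0.42, SE 0.28) and Fabp5 (-0.62, SE 0.58), which without W9 were 0.19 and -0.29. In HF20, where Fabp5 and Cd36 were lowest, all 11 adipocyte genes also averaged below HFC, 2 of them at an unadjusted p below 0.05, with a median of -1.51. With the adipocyte list score as a covariate, the HF20 difference was -0.25 for Fabp5 and -0.01 for Cd36, and for the mean of the doses the Fabp5 difference was 0.01.

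The members' median difference was -0.11 in HF5, -0.43 in HF20, 0.01 in HF75 and -0.22 for the mean of the doses, beside -0.03, 0.04, 0.04 and 0.01 over all probes. The further lists had few genes past the unadjusted threshold. For the mean of the doses none was found in any list, with medians of -0.21 over the 20 further lipid-associated genes, -0.15 over the 8 Trem2 signalling genes, all below 0, and -0.25 over the 14 general macrophage genes.

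**Figure D3:**
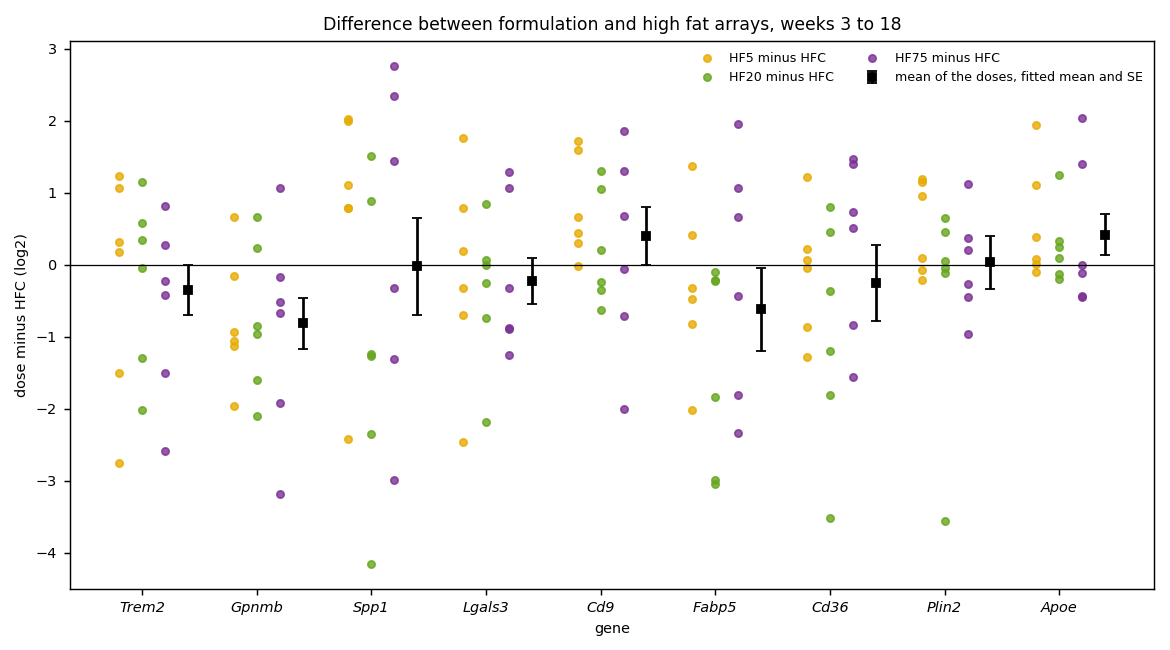
Dose minus HFC (log2) of each gene at weeks 3 to 18, with points for each week coloured by dose and black squares for the fitted mean of the doses with its SE. Gpnmb averages -0.81, and for the other genes the mean lies within 2 SE of 0.

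Over the arrays, 3 members rose and fell together: Fabp5, Cd36 and Plin2. The Spearman correlation was 0.90 between Fabp5 and Cd36, 0.79 between Plin2 and Cd36 and 0.76 between Fabp5 and Plin2 over 38 arrays. With each time point's mean removed it was 0.88, 0.62 and 0.40. Cd36 and Plin2 carry the half-site shown above, as does Trem2, which did not follow them. Fabp5 had no listed window, and 14% of all windows held the half-site. Fabp5, Cd36 and Plin2 also followed the adipocyte list score, with correlations of 0.81, 0.69 and 0.69, and the endothelial list, with 0.49, 0.61 and 0.42. Without W9 and W12 the order of the 2 lists was the other way for all 3 genes. The correlations of Fabp5, Cd36 and Plin2 were then 0.72, 0.58 and 0.54 with the adipocyte list and 0.81, 0.92 and 0.81 with the endothelial list. With each time point's mean removed, the correlation with the adipocyte list was 0.80 for Fabp5, 0.62 for Cd36 and 0.25 for Plin2, and that of Plin2 was 0.62 with the endothelial list and 0.41 with the macrophage list.

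Over the 38 arrays the other members had weaker correlations with each other. The correlation of Trem2 was 0.10 with Gpnmb, -0.02 with Spp1, 0.26 with Lgals3 and -0.22 with Cd9, and with each time point's mean removed it was 0.42, 0.15, 0.36 and 0.19. Without W9 and W12 it was -0.12, 0.03, -0.08 and -0.28. Gpnmb and Lgals3 reached 0.38, and Cd9 and Spp1 0.47. Cd9 and Apoe, which both fell with brightness, reached 0.54, or 0.69 with each time point's mean removed. Lgals3 (0.53) and Trem2 (0.42) followed the general macrophage list, or with 0.44 and 0.17 without W9 and W12, and Gpnmb (0.07), Spp1 (-0.12) and Cd9 (-0.01) had correlations near 0 with it. Arrays of a diet and a time point share their day of work and their brightness, so these correlations are descriptions of the 38 arrays.

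**Figure D4:**
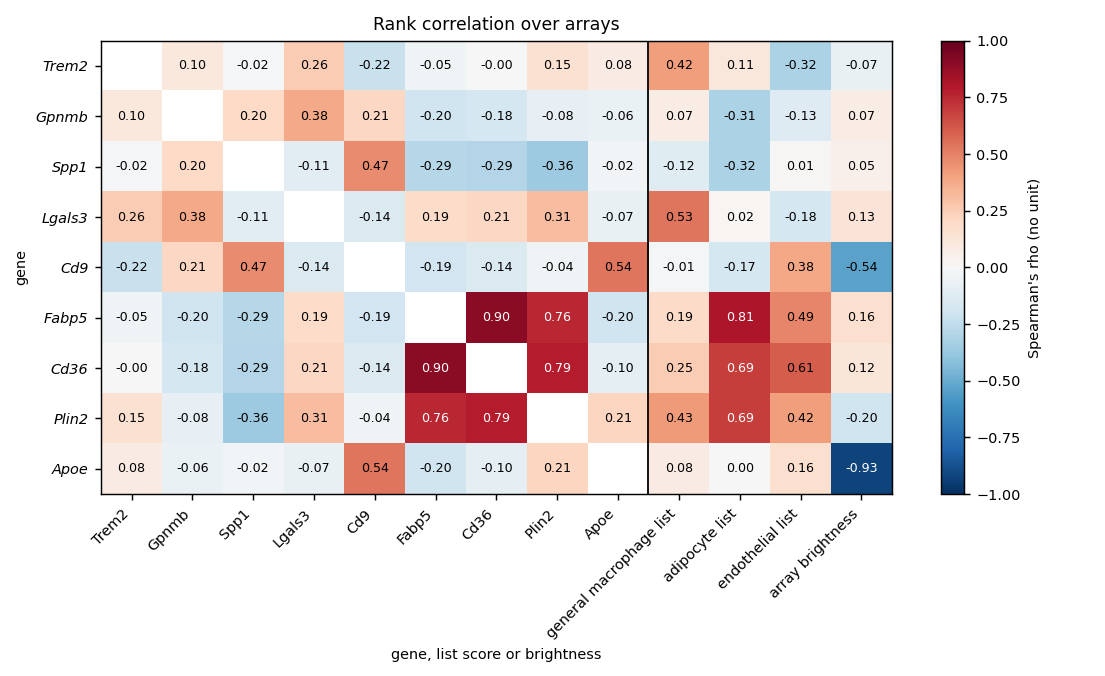
Spearman correlation over the arrays (n = 38, 37 for Cd9) between the 9 genes and, right of the line, the scores of 3 cell type lists and array brightness, with red above 0 and blue below. The dark red block joins Fabp5, Cd36 and Plin2 and extends to the adipocyte list, and Apoe stands at -0.93 with brightness.

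**Figure D5:**
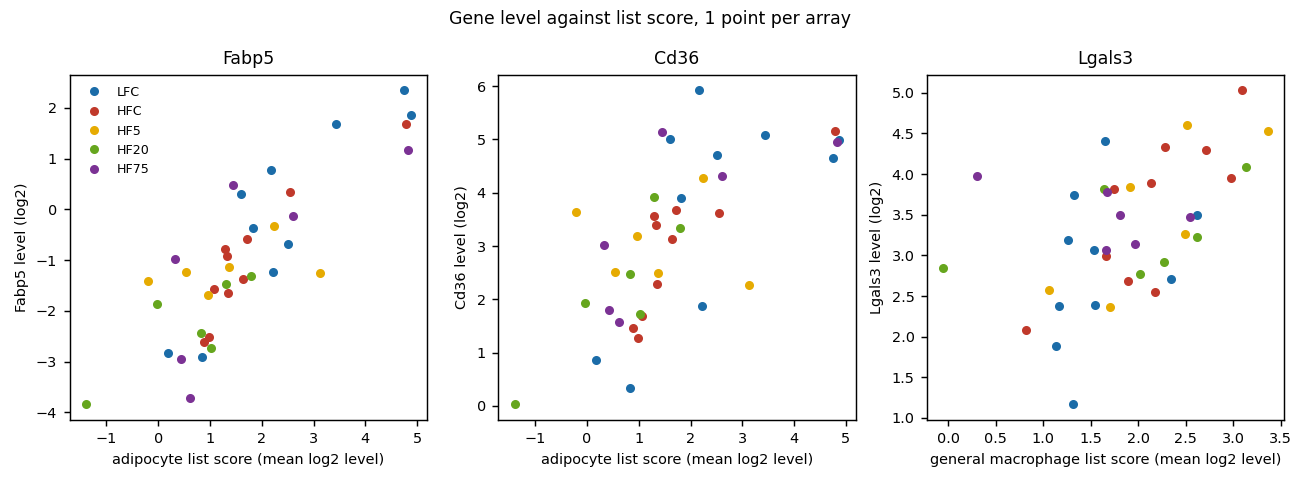
Level of Fabp5 and Cd36 against the adipocyte list score and of Lgals3 against the general macrophage list score (all log2), 1 point per array, coloured by diet. Fabp5 rises with the adipocyte score (correlation 0.81), and HF20 W12 is the lowest for both Fabp5 (-3.83) and Cd36 (0.04).

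The genes most like each member were sought among 15746 probes well above background on at least 35 arrays. The nearest to Fabp5 were Fabp4, the fatty acid carrier of adipocytes (0.93), and Pparg, the nuclear receptor that drives adipocyte genes (0.93). The nearest to Cd36 were Fabp4 (0.93) and Rgcc (0.92), and those to Plin2 were Pik3r6 (0.86) and S100a13 (0.86). The Fabp4 spot was saturated on 34 of the 38 arrays, so its level there is a lower bound. The nearest to Trem2 were Nupr1 (0.76) and Aph1b (0.73), to Lgals3 Dnase1l1 (0.77) and Pnpla7 (0.76), to Cd9 Pcbp4 (0.81) and Ndrg1 (0.76), to Spp1 Mt3 (0.72) and Myot (0.69), and to Gpnmb Uchl1 (0.69) and Serpinb1b (0.60). None of the 14 general macrophage genes was among these. The nearest to Apoe were the ribosomal protein genes Rps24 (0.98) and Rpl12 (0.96), beside its own correlation of -0.93 with brightness.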

How the data were processed

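Epididymal stromal vascular RNA was hybridised to one-colour Agilent arrays, 1 array per diet and time point. Per the file headers, the deposited intensity values were made with Feature Extraction 10.5.1.1 (the submitters' processing notes name 9.1): the processed signal is background-subtracted and detrended within the array and is not normalised between arrays. The deposited series table holds log2 fold changes to LFC by the authors and was not used.

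From 43803 non-control spots, outlier spots were dropped, log2 of the processed signal was centred on each array's 75th percentile, and spots of a probe were averaged, giving 40628 probes. Of these, 71.2% matched a RefSeq accession. Saturated spots were kept. The test took each probe that, in some diet, was well above background in a share of 0.5 or more of its arrays, and used limma 3.58.1 (lmFit, eBayes) in R 4.3.3, two-sided, with time point as a block except in slopes within a diet. Slopes are per week, with weeks counted from day 14. P-values were adjusted (Benjamini-Hochberg) over all probes, with a threshold of 0.05. The script was tested on simulated data. P-values measure the spread between time points, and the number of arrays limits the precision. A list is represented by the brightest probe of each gene, and its score is their mean level.

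The members and gene lists were chosen with earlier results of these data known. All members are named for HFC minus LFC. For other comparisons the 3 members of smallest p are named, for each list the 3 genes of smallest p in HFC minus LFC, and for each member its 2 nearest genes. Alternatives were quantile normalisation, normexp (offset 50), other filters, covariates, blocks and sets of arrays, and the methods' t-test. LFC and HFC arrays were paired by time point. The result of a further cell type list and the probe sequences are not reported here.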

Additional observations from a re-analysis of the deposited data

Results flagged for a closer look

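In 5 of the 45 groups of levels of a gene in a diet, 1 array lay far from the others by Dixon's test at the 95% level, and about 2.25 of 45 groups would do so by chance. Trem2 was lowest in LFC at D10, with a level of -0.87 where the next array was at 1.02. In HF5 Trem2 was highest at W9, with 4.50 where the next was at 2.43. Cd9 was highest in HF5 at W12, the dimmest array of all, with 5.19 where the next was at 4.45. Gpnmb was highest in LFC at W6, with 1.57 where the next was at -1.07, and in HF20 at W6, with 0.42 where the next was at -1.18. Gpnmb was also highest at W6 in HF5 (0.40) and HF75 (0.81), where the gap did not pass the test. The T cell list was also high at W6, between -0.21 and 2.02 on the 5 arrays against -3.36 to 0.98 elsewhere. HFC W6 held the highest T cell score (2.02) but a Gpnmb level of -0.26, below that of HFC W9 (0.78). Without W6 the HFC minus LFC difference of Gpnmb was 1.45 in place of 1.12. On LFC D10, the Trem2 array named above, the brown fat list was at 2.68, and on HF5 W12, the Cd9 array, it was at 4.49. The part of these cell types was not tested.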

How the results depend on the processing

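No member passed the adjusted threshold in HFC minus LFC, in a slope or in a dose comparison under any alternative run. Over all probes the methods' t-test found 2837 at an unadjusted p below 0.05 between HFC and LFC and 0 after adjustment, beside 2819 and 0 with limma. The HFC minus LFC difference of Cd9 turned to 0.10 with quantile normalisation, 0.092 with normexp, 0.65 with array brightness as a covariate and 0.074 without days 6 and 10, and ran from -0.37 to 0.10 over the fits that each left out a time point, above 0 without D6 (0.07) or W18 (0.10). That of Plin2 turned to 0.054 with normexp, 0.29 with brightness, 0.056 without days 6 and 10 and 0.18 on different slides. That of Apoe turned to 0.12 with quantile normalisation and 0.059 with brightness. On different slides, a choice made after seeing the data, Trem2 turned to -0.14 and Cd36 to 0.32. The diet by time slope turned to -0.0071 for Apoe with quantile normalisation and to -0.0084 for Spp1 without weeks 9 and 12. In HF5 minus HFC, normexp turned Apoe to -0.29 and Cd9 to -0.064, and the members' median moved from -0.11 to 0.31 with the adipocyte list score as a covariate, 0.35 without weeks 9 and 12 and 0.35 without W12, with a range from -0.18 to 0.35 over the fits that each left out a week. For the mean of the doses, Fabp5 turned to 0.0097 with the adipocyte score. The cause was not tested in any of these. Without the replicate block, that is with time point left out of the model, the HFC minus LFC difference of Gpnmb stayed at 1.12 with an SE of 0.53 in place of 0.42, and 1 member in place of 3 had an unadjusted p below 0.05, beside 3.57% of all probes in place of 9.09%. Saturation limits what can be read of Apoe (28 of 38 arrays) and Plin2 (6 of 38).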
